A study of Homo sapiens with 5 samples.

Results

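Silencing of UPF1 in the SH-SY5Y line, which comes from a human neuroblastoma of noradrenergic character, was described by setting the library titled siUPF1 against the library titled siControl. These are 2 of the 5 libraries of the series, and each group has 1 library. A gene entered the comparison when the larger of its 2 deposited log2 values was at or above 7.8, which left 8557 of 26364 gene symbols. GRIA4 and GDPD1, both with a larger value of 7.7957, lay just outside this floor, and OCLN and WDR59, both at 7.8009, lay just inside it. The series was designed to find transcripts that increase with loss of STAU1 or UPF1 and also with differentiation.

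The siControl cells received a control siRNA, the siUPF1 cells an siRNA against UPF1 and the siSTAU1 cells an siRNA against STAU1, in each case read from the sample title. All groups were grown with 10% serum and 1% antibiotics. The medium label also lists 50 uM retinoic acid for the libraries titled Nondifferentiation and Differentiation, so the undifferentiated library is used below under its title, as a second reference that carries no siRNA in its label. For the siRNAs, the sources used here give no sequence, dose or time after transfection, and no measure of UPF1 protein. Values of the 3 libraries other than the compared pair are given beside the results, because siControl on its own shows nothing of the spread between cultures.

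UPF1 is an RNA helicase that acts in several decay routes. In nonsense-mediated decay, ribosomes that stop at a premature or otherwise unusual stop codon recruit UPF1 with UPF2 and UPF3B, the kinase SMG1 phosphorylates it, and SMG5 and SMG6 then take part in the destruction of the mRNA. In Staufen-mediated decay, STAU1 bound to double-stranded RNA in a 3' end recruits UPF1 to the transcript. Natural targets of the first route include mRNAs with upstream reading frames, such as those of ATF4 and other stress regulators, host transcripts of small nucleolar RNAs and the mRNAs of several decay factors themselves.

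Libraries were made from 500 ng of total RNA with a kit that reads 3' ends, so a change in the level of a gene cannot be assigned to 1 of its isoforms. The steps between the lowest values gave a depth of about 15300000 reads for siControl and 17800000 for siUPF1, within a range of 15300000 to 32000000 over the 5 libraries. A value at the floor corresponded to about 175 reads in siControl and 204 in siUPF1. The counting error of a log2 difference, given below as a counting SE, was 0.149 at the floor and 0.0694 at a log2 value of 10. It does not cover differences between cultures, and because each group has 1 library there is no replicate check and nothing was tested. The 5 libraries share one distribution of values, with the highest at 18.01 in each, so a change in total RNA would not show, and in bulk RNA fewer cells of a type and less RNA per cell cannot be told apart.

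The UPF1 mRNA was lowest in the library labelled for its siRNA. Its log2 value was 9.20 in siUPF1, 10.74 in siControl, 10.64 in siSTAU1, 10.62 in Nondifferentiation and 10.69 in Differentiation. The 4 other libraries lay close together, and siUPF1 lay 1.53 log2 units under siControl (counting SE 0.07), a level 2.90-fold lower. The gap was 1.44 to siSTAU1 and 1.41 to Nondifferentiation. STAU1, the partner of UPF1 in Staufen-mediated decay, stood at 12.87 in siControl and 12.89 in siUPF1, against 11.34 in the siSTAU1 library.

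Most genes differed little between the 2 libraries. The median log2 difference, siUPF1 minus siControl, was -0.01, the quartiles were -0.18 and 0.16, and 95.4% of genes were within 1.5-fold. At 2-fold, 35 genes were higher in siUPF1, which is 0.409% of the measured genes, and 12 were lower, which is 0.14%. At 1.5-fold, 261 were higher (3.05%) and 134 were lower (1.57%). Of all measured genes 47.9% were above 0. The 2-fold, 1.5-fold and above-0 counts of the gene lists and symbol groups below are to be read beside these shares. With the other references the median over all measured genes was -0.02 (siSTAU1) and -0.01 (Nondifferentiation). The counting interval of each of the 47 genes past 2-fold excluded 0, which the threshold and a counting SE of at most 0.197 already imply. All 47 had a mean level under a log2 value of 11. The floor itself favours such genes: the siControl value of 18 of the 35 higher genes and the siUPF1 value of 9 of the 12 lower genes was under 7.8, and with both values required to reach the floor 17 genes were higher and 3 lower. Set against siSTAU1 in place of siControl, siUPF1 had 47 genes higher (0.549%) and 26 lower (0.304%), and against Nondifferentiation 46 higher (0.537%) and 71 lower (0.828%). These comparisons share the siUPF1 library and are not independent of each other.

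**Figure D1:**
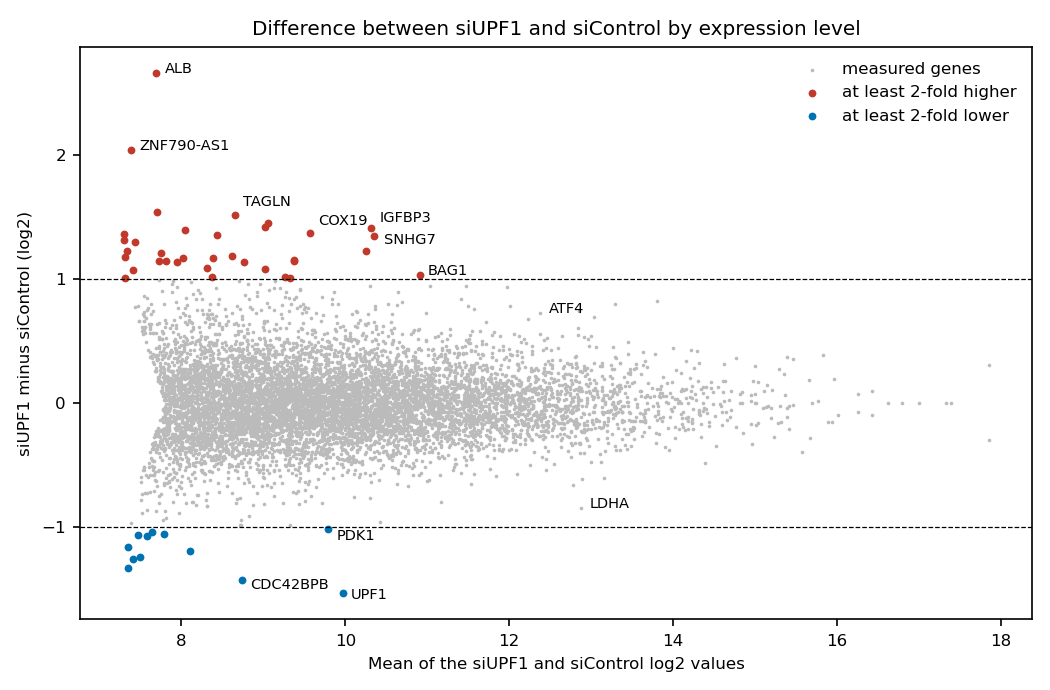
The mean of the siUPF1 and siControl log2 values (x axis) against their difference, siUPF1 minus siControl, in log2 units (y axis), for 8557 measured genes. Red points are the 35 genes at least 2-fold higher and blue points the 12 at least 2-fold lower, dashed lines mark 2-fold, and the slanted left edge comes from the floor of 7.8 on the larger value.

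The UPF and SMG genes other than UPF1 were mostly somewhat higher in siUPF1. Of 13 measured members of the list, UPF1 alone passed 1.5-fold, 8 were above 0 and the median was 0.24, against -0.01 for all measured genes. siUPF1 was the highest of siControl, siSTAU1, siUPF1 and Nondifferentiation in 7 of the 13, a pattern found in 24.9% of all measured genes, and the lowest in 3, against 28% of all measured genes. SMG5, an adaptor that binds phosphorylated UPF1, stood at 8.83 in siUPF1, 8.48 in siControl, 8.15 in siSTAU1, 8.34 in Nondifferentiation and 7.74 in Differentiation, a difference of 0.35 to siControl. SMG6, the endonuclease, stood at 10.99, 10.55, 10.36, 10.67 and 11.60 in the same order. For both genes siUPF1 was above the other undifferentiated libraries, and the differentiated one was highest for SMG6.

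The kinase gene SMG1 and the genes of its 2 associated subunits were also highest in siUPF1. SMG9 stood at 8.49 in siUPF1, 7.97 in siControl, 7.50 in siSTAU1, 7.59 in Nondifferentiation and 7.43 in Differentiation, so its difference was 0.52 to siControl and larger, 0.99 and 0.90, to siSTAU1 and Nondifferentiation. SMG1 differed by 0.36 and SMG8 by 0.35 from siControl, and SMG8 by only 0.08 from siSTAU1. The other UPF genes depended on the reference. UPF3B, which links UPF1 and UPF2 to exon junctions, was 0.06 above siControl but 0.65 above both siSTAU1 and Nondifferentiation. UPF2 was 0.18 below siControl but 0.49 above siSTAU1 and 0.38 above Nondifferentiation, and UPF3A was 0.23 below siControl but 0.31 and 0.27 above the same 2 libraries. For these 3 genes siControl and siUPF1 both stood higher than siSTAU1 and Nondifferentiation.

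Among genes reported as natural targets of nonsense-mediated decay, a list written from general knowledge of the field with earlier results of these data known, 36 of 49 measured members were above 0 and the median was 0.17. At 2-fold 4 were higher and none lower, against 0.409% and 0.14% of all measured genes. At 1.5-fold 7 were higher and none lower, against 3.05% and 1.57%. siUPF1 was above siControl, siSTAU1 and Nondifferentiation in 21 of the 49 and below all 3 in 4, against 24.9% and 28% of all measured genes. The median was smaller against the other references, 0.04 against siSTAU1 with 30 members above 0, and 0.10 against Nondifferentiation with 34. The sign of the median was thus the same with each reference, while its size was not. These comparisons share the siUPF1 library, so the shared sign is no independent support.

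GABARAPL1, an autophagy gene of the ATG8 family, was the highest member. It stood at 9.11 in siUPF1, 7.76 in siControl, 7.87 in siSTAU1, 8.06 in Nondifferentiation and 9.18 in Differentiation, a difference of 1.35 with a counting SE of 0.13. BAG1, a cochaperone of HSP70, stood at 11.42, 10.39, 10.74, 10.70 and 10.41, a difference of 1.03 with a counting SE of 0.05, and siUPF1 was the highest of all 5 libraries. ATF3, a transcription factor of the stress response, stood at 9.22, 8.03, 8.38, 8.53 and 6.83, a difference of 1.19. For both BAG1 and ATF3 siControl was the lowest of the 4 libraries without differentiation, and against siSTAU1 the differences were 0.68 and 0.83.

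ATF4, the transcription factor at the centre of the integrated stress response and a classic target with upstream reading frames, stood at 12.74 in siUPF1, 12.02 in siControl, 11.69 in siSTAU1, 11.69 in Nondifferentiation and 11.18 in Differentiation. It was 0.72 above siControl and 1.05 and 1.06 above siSTAU1 and Nondifferentiation. ATF5, a related factor with the same kind of leader, was 0.44 above siControl, 0.88 above siSTAU1 and 0.65 above Nondifferentiation. Both genes were thus further from the other references than from siControl. CDKN1A and UPP1 behaved differently. CDKN1A, the p21 inhibitor of cyclin-dependent kinases, stood at 10.77, 9.83, 10.30, 11.66 and 10.89, so siUPF1 was 0.94 above siControl but 0.88 below Nondifferentiation. UPP1, which encodes uridine phosphorylase, was 1.07 above siControl and 0.35 below Nondifferentiation.

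Smaller differences ran through other members. PPP1R15A, a phosphatase subunit that ends the stress response, differed by 0.72 from siControl but by only 0.06 from Nondifferentiation. NAT9 differed by 0.48, 0.62 and 0.93 from siControl, siSTAU1 and Nondifferentiation, ARFRP1 by 0.48, 0.40 and 0.26, and OAZ1, the antizyme of polyamine control, by 0.49, 0.22 and 0.14. The mRNAs of splicing factors, whose poison exons feed into nonsense-mediated decay, stayed near 0: of 51 measured SR protein, hnRNP and related genes none passed 1.5-fold, 15 were above 0 and the median was -0.08. SRSF3 differed by -0.07 and PTBP1 by 0.07. Reads at 3' ends do not separate the isoforms with poison exons from the productive ones.

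Host transcripts of small nucleolar RNAs, whose exons carry little coding sequence, included some of the largest differences. Of 17 measured host genes 2 were 2-fold higher, none 2-fold lower, 4 were 1.5-fold higher and 1 was 1.5-fold lower, with a median of 0.18. Over all measured genes the shares were 0.409%, 0.14%, 3.05% and 1.57%. SNHG7 stood at 11.02 in siUPF1, 9.67 in siControl, 9.89 in siSTAU1, 10.14 in Nondifferentiation and 9.62 in Differentiation, a difference of 1.35 with a counting SE of 0.07. SNHG17 stood at 9.83, 8.82, 8.84, 8.97 and 7.79, a difference of 1.00. GAS5, a host transcript known to be degraded in this way, stood at 11.35, 10.63, 10.84, 10.85 and 10.43. In each of the 3 genes siUPF1 was the highest of the 5 libraries.

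SNHG15 differed by 0.84 from siControl, but siControl was its lowest library outside differentiation, and the difference to siSTAU1 was 0.28. ZFAS1 and EPB41L4A-AS1 differed by 0.43 and 0.37. The list did not move as one. SNHG19 stood at 9.95 in siControl and 9.20 in siUPF1, a difference of -0.75, and at 9.68 and 9.64 in siSTAU1 and Nondifferentiation. SNHG3 and SNHG12 both differed by -0.37. siUPF1 was the highest of the 4 libraries without differentiation in 9 of the 17 and the lowest in 4, against 24.9% and 28% of all measured genes. GAS5-AS1, an antisense symbol at the GAS5 locus, differed by 0.79. Whether reads were counted by strand is unknown from the sources at hand, so its reads and those of GAS5 cannot be told apart.

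**Figure D2:**
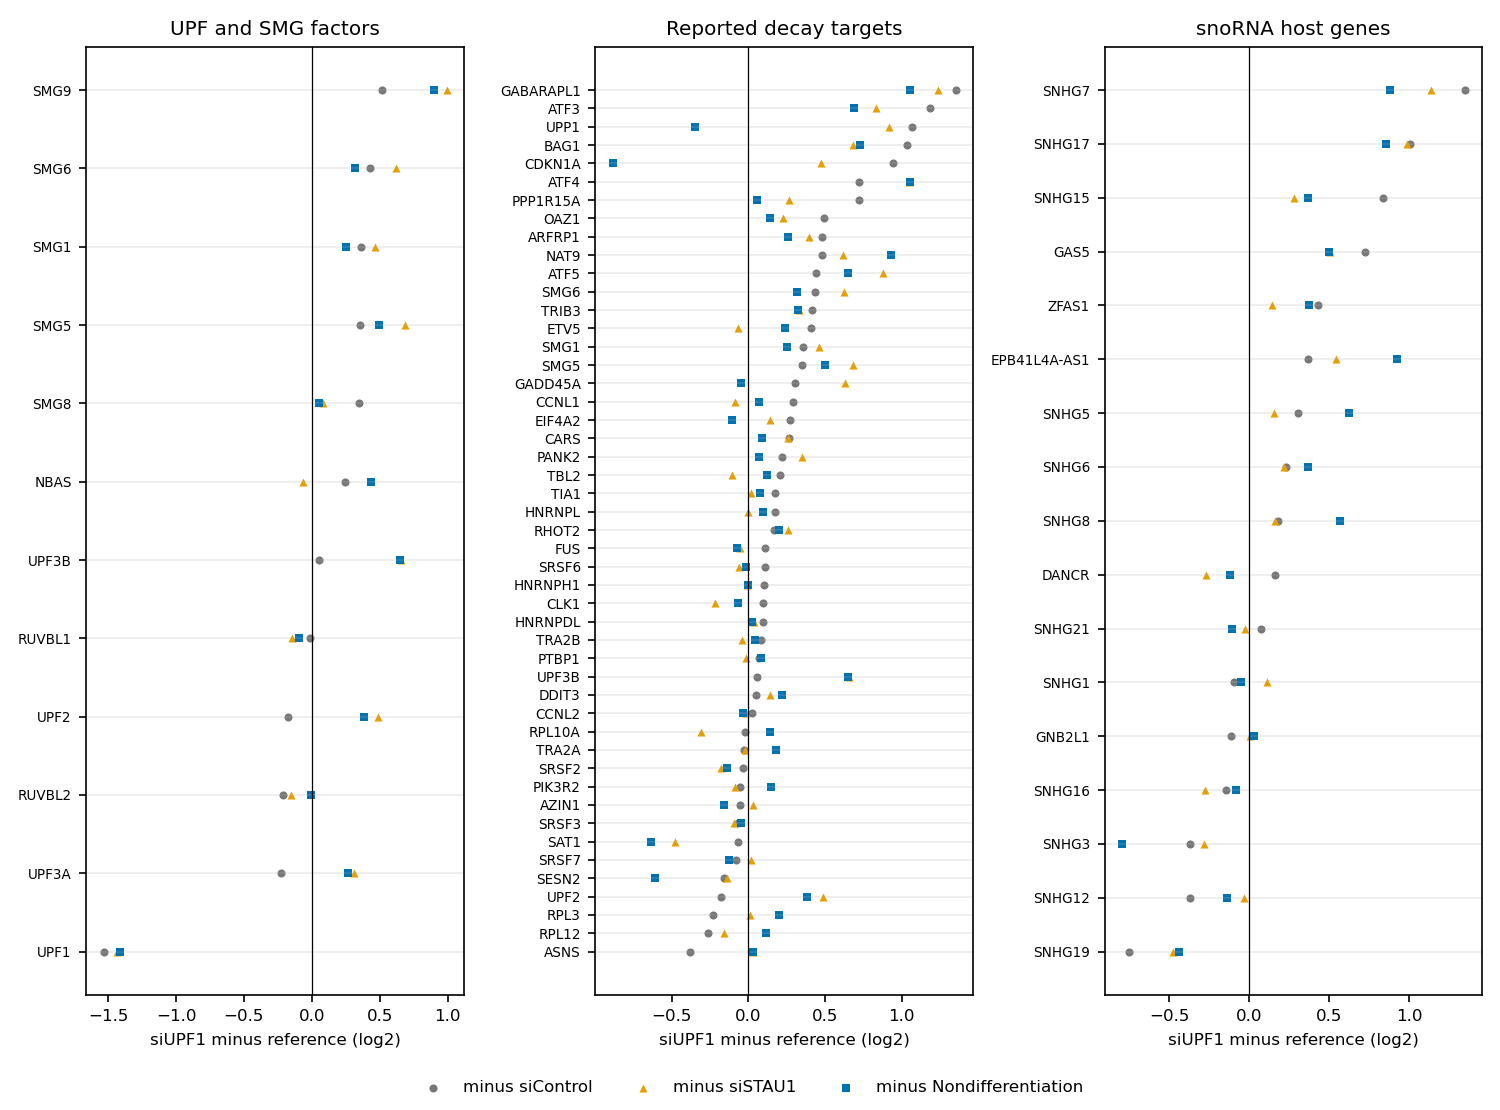
Log2 difference of siUPF1 (x axis) to siControl (grey circles), siSTAU1 (orange triangles) and Nondifferentiation (blue squares) for each measured UPF and SMG factor, reported decay target and host gene of small nucleolar RNAs, with 1 gene of the first 2 panels not drawn. GABARAPL1, ATF3, BAG1, ATF4, SNHG7 and SNHG17 lie right of 0 against all 3 references, while UPP1 and CDKN1A lie left of 0 against Nondifferentiation.

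The rest of the decay machinery was level or slightly lower. In the exon junction complex, which marks splice sites for UPF3B, none of 12 measured genes passed 1.5-fold and the median was -0.04. Its lowest member, PNN, differed by -0.45 from siControl and by 0.14 from Nondifferentiation. Of 47 measured genes for decapping, deadenylation and the exosome none passed 1.5-fold, 37 were below 0 and the median was -0.10. Against Nondifferentiation 23 of the 47 were above 0 and the median was -0.00. CNOT10, a subunit of the CCR4-NOT deadenylase, was the lowest, at 9.39 in siUPF1, 9.90 in siControl, 9.95 in siSTAU1, 9.84 in Nondifferentiation and 9.83 in Differentiation. The siUPF1 value was the lowest of the 5 libraries.

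Reported targets of Staufen-mediated decay gave few measured genes, 8 of 16 symbols. Of these 6 were above 0, none passed 2-fold, CDKN1A passed 1.5-fold and the median was 0.28. Against siSTAU1 the median was 0.12 and against Nondifferentiation it was -0.04. ARF1, the best known of these targets, stood at 13.79 in siUPF1, 13.48 in siControl, 13.60 in siSTAU1, 13.78 in Nondifferentiation and 14.05 in Differentiation. Its difference of 0.30 from siControl had a counting SE of 0.02, and its siUPF1 and Nondifferentiation values were nearly equal. JUN differed by 0.43 from siControl and by -0.07 from Nondifferentiation, and GAP43, a growth cone protein, by 0.13 and 0.43. Of 13 measured Staufen proteins and RNA-binding partners none passed 1.5-fold, and STAU2 differed by 0.06.

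Targets of ATF4 did not follow ATF4 as a group. Of 31 measured genes of the integrated stress response 16 were above 0 and 15 below, with a median of 0.03. At 1.5-fold 5 were higher, ATF3, GDF15, ATF4, PPP1R15A and JDP2, and 1 was lower, XPOT. TRIB3, a pseudokinase that restrains ATF4, differed by 0.41, and DDIT3, the factor known as CHOP, by 0.05. The 3 lowest members of the list differed among themselves in how they stood to the other references. ASNS, asparagine synthetase, stood at 13.12 in siUPF1, 13.49 in siControl, 13.08 in siSTAU1, 13.08 in Nondifferentiation and 12.27 in Differentiation, so the siControl library stood apart from the other undifferentiated ones. XPOT, the tRNA exporter, differed by -0.65, -0.44 and -0.46 from siControl, siSTAU1 and Nondifferentiation, and ALDH18A1, of proline synthesis, by -0.44, -0.73 and -0.49.

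Among 32 measured aminoacyl-tRNA synthetase genes and partners 22 were below 0 and the median was -0.15. siUPF1 was the lowest of the 4 libraries without differentiation in 16 of the 32, against 28% of all measured genes. EPRS differed by -0.57, GARS by -0.54 and TARS2 by -0.52, while RARS2, a mitochondrial enzyme, differed by 0.64. Of 22 measured genes of the unfolded protein response none passed 1.5-fold and the median was 0.04, with 13 above 0. Against siSTAU1 the median was -0.08 with 7 above 0, and against Nondifferentiation it was -0.38 with 3 above 0. HSPA5, the chaperone BiP that reports stress of the endoplasmic reticulum, stood at 12.54 in siControl and 12.64 in siUPF1 and at 13.35 in Nondifferentiation.

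Of the 35 genes 2-fold higher than siControl, siUPF1 was also above both siSTAU1 and Nondifferentiation in 32, the exceptions being PGF, FDXR and UPP1. Over all measured genes siUPF1 was above these 3 libraries in 24.9%. In 21 of the 35 siControl was the lowest of the 4 libraries. The 35 were chosen for a siUPF1 value far above siControl, which favours both counts, so neither is independent of that choice. A gene was at least 2-fold higher than in each of the 3 references in 10 cases, 0.114% of the 8765 genes that could be compared in this way, and at least 2-fold lower than in each in 4 cases, 0.0456%. The 10 higher genes were ALB, ZNF790-AS1, TAGLN, ZFAND2A, CHN2, PDRG1, HEIH, GABARAPL1, COX19 and NFKBIB. This stricter count was chosen after the values had been seen.

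COX19, which helps to assemble cytochrome c oxidase, stood at 10.25 in siUPF1, 8.88 in siControl, 9.21 in siSTAU1, 9.15 in Nondifferentiation and 9.12 in Differentiation, a difference of 1.37 with a counting SE of 0.09. NFKBIB, an inhibitor of the transcription factor NF-kB, stood at 9.95, 8.80, 8.91, 8.85 and 7.97. PDRG1, a small prefoldin-like protein, stood at 8.85, 7.76, 7.67, 7.74 and 7.66. In all 3 genes the references lay close together, and siUPF1 was at least 1.04 log2 units above every other library.

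HEIH, a long noncoding RNA, stood at 9.56 in siUPF1, 8.47 in siControl, 8.34 in siSTAU1, 8.23 in Nondifferentiation and 8.66 in Differentiation. ZFAND2A, a zinc finger protein induced by proteotoxic stress, stood at 7.95, 6.72, 6.81, 6.69 and 7.02, and entered the comparison through its siUPF1 value alone. CHN2, an activator of the GTPase activity of Rac, stood at 8.60, 7.43, 7.49, 6.92 and 7.70. Each of the 3 was highest in siUPF1 of all 5 libraries. ZNF790-AS1, an antisense transcript, stood at 8.40, 6.36, 6.96, 6.21 and 6.27, a difference of 2.04 with a counting SE of 0.20. Of 57 measured antisense symbols 1 was 2-fold higher and none 2-fold lower, 4 were 1.5-fold higher and 2 were 1.5-fold lower, and their median was -0.11. The shares over all measured genes were 0.409%, 0.14%, 3.05% and 1.57%.

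Other genes past 2-fold depended more on which library they were set against. IGFBP3, a secreted protein that binds insulin-like growth factors, stood at 11.02 in siUPF1, 9.61 in siControl, 10.68 in siSTAU1, 7.31 in Nondifferentiation and 8.71 in Differentiation. Its difference was 1.41 to siControl, 0.34 to siSTAU1 and 3.71 to Nondifferentiation, so the libraries given an siRNA all lay above the others. PTRF, the caveolar coat protein cavin-1, stood at 9.73, 8.31, 8.28, 9.50 and 10.04, and FDXR, a mitochondrial ferredoxin reductase, at 10.87, 9.64, 10.44, 10.88 and 10.03. For PTRF and FDXR siUPF1 was close to Nondifferentiation, and for FDXR siControl was the lowest of the 5 libraries.

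The remaining higher genes lay between 1.01 and 1.54 above siControl. They include KIAA0319, a neuronal membrane protein, at 1.54, ASL, the argininosuccinate lyase of arginine synthesis, at 1.45, DMD, which encodes dystrophin, at 1.39, and PAX6, a transcription factor of eye and brain development, at 1.36. Against Nondifferentiation these 4 differed by 0.60, 0.60, 1.45 and 0.51. EDEM2, of the degradation of misfolded glycoproteins, differed by 1.32, PLCE1, a phospholipase C, by 1.21, EDNRA, an endothelin receptor, by 1.17, and BCL2L2, an antiapoptotic protein, by 1.01. PCNXL2, CARF, POFUT2, ALKBH6, KRBOX4, ORAOV1 and LOC101927151 made up the rest, from 1.01 to 1.18. Against siSTAU1, the higher genes past 2-fold also included 16 of the 35, and against Nondifferentiation 15 of the 35.

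**Figure D3:**
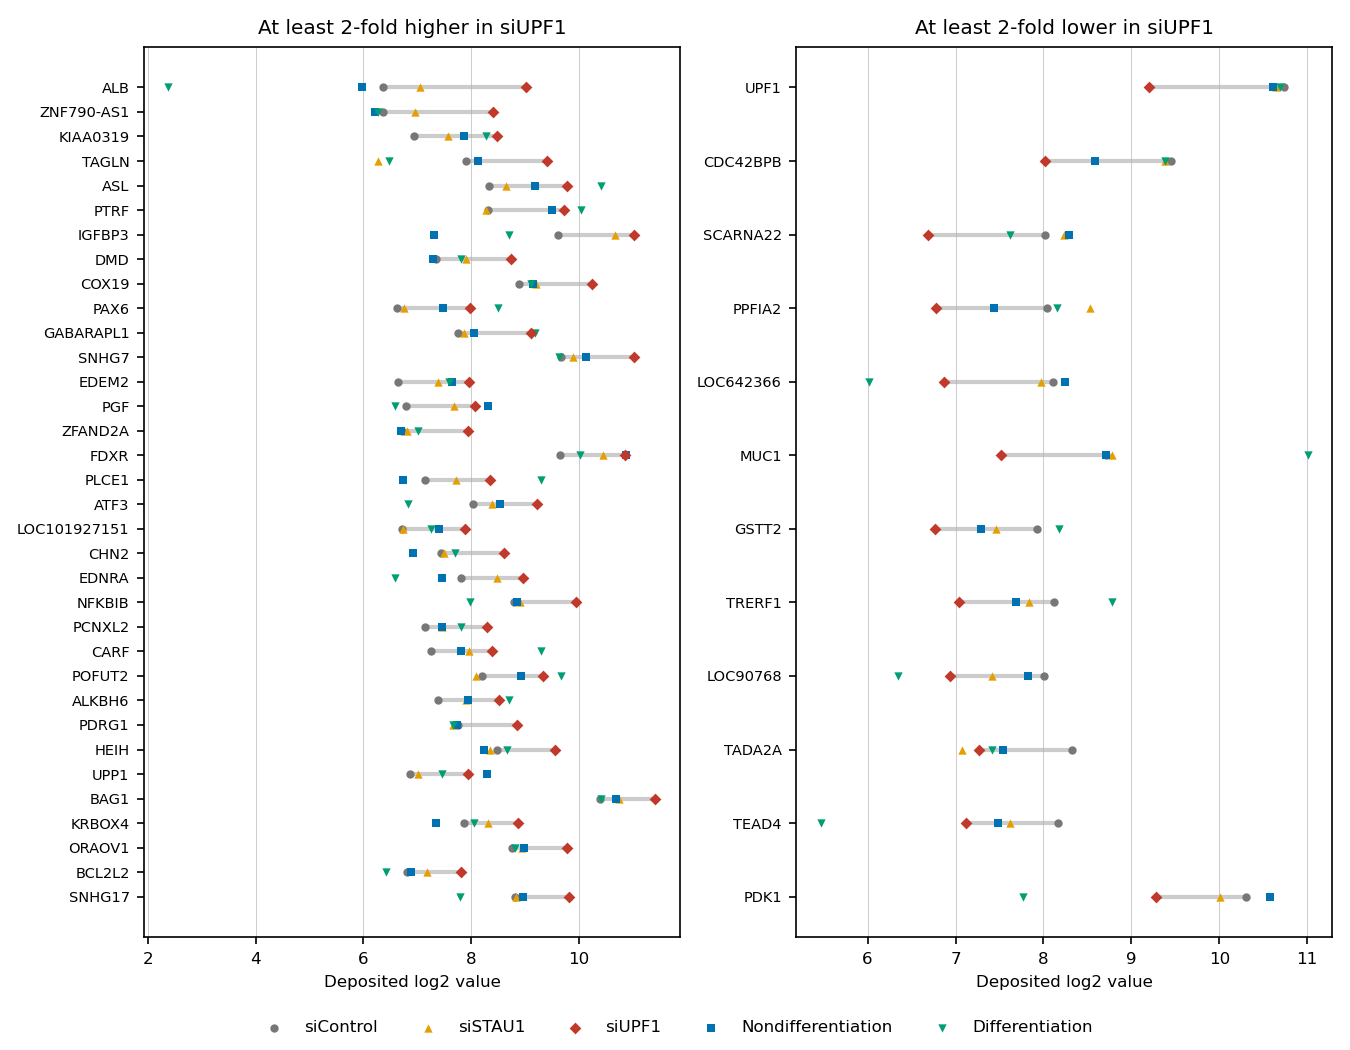
Deposited log2 value (x axis) in each of the 5 libraries for the 35 genes at least 2-fold higher (left) and the 12 at least 2-fold lower (right) in siUPF1, ordered by the difference, with a grey line from siControl to siUPF1 and 1 higher gene not drawn. In COX19, NFKBIB, PDRG1, SNHG7 and BAG1 the siUPF1 diamond stands to the right of all other libraries.

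The 12 lower genes were led by UPF1 itself. CDC42BPB, a kinase that acts on the actin cytoskeleton downstream of CDC42, stood at 8.02 in siUPF1, 9.45 in siControl, 9.38 in siSTAU1, 8.58 in Nondifferentiation and 9.38 in Differentiation, a difference of -1.43 with a counting SE of 0.11. MUC1, a membrane mucin, stood at 7.51, 8.71, 8.78, 8.71 and 11.01, so the 3 references lay within 0.07 of each other and the difference of siUPF1 to siControl was -1.19. PPFIA2, the presynaptic scaffold liprin-alpha-2, stood at 6.78, 8.04, 8.53, 7.43 and 8.16. siUPF1 was the lowest of the 5 libraries in all 3 genes.

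SCARNA22, a small Cajal body RNA, and LOC642366 differed by -1.33 and -1.24, and with UPF1 and MUC1 they are the 4 genes at least 2-fold below each of the 3 references. TRERF1, TEAD4 and LOC90768 differed by -1.07, -1.04 and -1.07 from siControl and by less from siSTAU1 and Nondifferentiation. TADA2A, an adaptor of histone acetyltransferases, stood at 8.32 in siControl and 7.27 in siUPF1, but at 7.07 in siSTAU1. GSTT2 differed by -1.16 and has a near-identical copy in the genome, so its value is uncertain. The lower genes past 2-fold against siSTAU1 and Nondifferentiation included 6 and 5 of the 12.

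The twelfth gene, PDK1, belongs to a group of hypoxia and glycolysis genes in which lower values prevailed. PDK1, a kinase that inhibits pyruvate dehydrogenase, stood at 9.28 in siUPF1, 10.30 in siControl and 10.01 in siSTAU1. It stood at 10.58 in Nondifferentiation and 7.77 in Differentiation, and its difference was -1.02 with a counting SE of 0.08. LDHA, lactate dehydrogenase A, stood at 12.46, 13.31, 12.75, 13.30 and 10.13, a difference of -0.85 with a counting SE of 0.02. HK2, hexokinase 2, stood at 8.90, 9.49, 9.25, 9.37 and 7.27. In each gene siUPF1 was the lowest of the undifferentiated libraries, siSTAU1 the next, and Differentiation lower still.

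SLC2A1, the glucose transporter GLUT1, stood at 7.27 in siUPF1, 7.85 in siControl, 7.83 in siSTAU1, 7.85 in Nondifferentiation and 5.21 in Differentiation. Over the list, 1 of 29 measured members was 2-fold lower, 3 were 1.5-fold lower, none was 1.5-fold higher and the median was -0.12. siUPF1 was the lowest of the 4 libraries without differentiation in 16 of the 29, against 28% of all measured genes, and the highest in 1, against 24.9%. The median was -0.08 against siSTAU1 and -0.30 against Nondifferentiation. NDRG1, a hypoxia-induced gene, went the other way, with a difference of 0.44.

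Promoters of these genes are known for the hypoxia response element, whose core is ACGTG. The windows below, taken because PDK1, LDHA and HK2 were the lowest members of the list, hold the 250 bases before a RefSeq start site (build GRCh38.p14), with ACGTG on either strand in capitals. RefSeq gives each of the 3 genes a second start site. The window shown is one that holds the motif, and the other windows of LDHA and PDK1 hold it in 0 places and that of HK2 in 2. Where a CACGTG stands, which is also an E-box, its 6 letters are in capitals.
LDHA, chr11:18394313-18394562, plus strand: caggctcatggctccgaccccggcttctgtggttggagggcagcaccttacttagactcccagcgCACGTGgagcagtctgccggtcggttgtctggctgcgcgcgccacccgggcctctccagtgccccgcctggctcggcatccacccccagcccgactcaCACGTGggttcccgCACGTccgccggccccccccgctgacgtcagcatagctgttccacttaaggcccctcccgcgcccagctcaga
PDK1, chr2:172555840-172556089, plus strand: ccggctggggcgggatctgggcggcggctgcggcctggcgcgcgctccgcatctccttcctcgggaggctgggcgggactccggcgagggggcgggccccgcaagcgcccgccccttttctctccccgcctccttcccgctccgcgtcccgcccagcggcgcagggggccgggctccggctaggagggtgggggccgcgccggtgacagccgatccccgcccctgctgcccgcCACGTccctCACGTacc
HK2, chr2:74833877-74834126, plus strand: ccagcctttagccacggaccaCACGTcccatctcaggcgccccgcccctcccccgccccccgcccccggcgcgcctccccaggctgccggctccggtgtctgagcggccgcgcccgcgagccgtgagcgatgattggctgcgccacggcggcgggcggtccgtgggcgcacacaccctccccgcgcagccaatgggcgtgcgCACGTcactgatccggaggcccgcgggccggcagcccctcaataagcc

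The motif is common. It lay in 18.5% of 35116 RefSeq windows, in at least 1 window of 30.6% of the 6694 measured genes with a match, and in 16 of the 26 matched members of the hypoxia and glycolysis list. The list was composed of known hypoxia genes, so that share is not a result of these data. Members with the motif had a median difference of -0.14 and the 10 without it a median of -0.08. The RefSeq window of SLC2A1 held none. A match of letters is a description of the window, and binding of a factor was not measured.

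Genes of the contractile and mesenchymal programmes tended to be higher in siUPF1 than in siControl, while against Nondifferentiation they were near level. TAGLN, the actin-binding protein transgelin, stood at 9.41 in siUPF1, 7.90 in siControl, 6.27 in siSTAU1, 8.13 in Nondifferentiation and 6.47 in Differentiation, a difference of 1.52 with a counting SE of 0.12. ACTA2, smooth muscle actin, stood at 8.67, 7.79, 7.06, 8.54 and 8.20, and CNN1, calponin, at 9.74, 8.94, 8.58 and 8.99 in the 4 libraries other than Differentiation. All 3 were highest in siUPF1 and lower in siSTAU1 than in siControl, but the ACTA2 value of Nondifferentiation was only 0.14 below siUPF1. TPM1, a tropomyosin, differed by 0.39, 0.71 and 0.72 from siControl, siSTAU1 and Nondifferentiation.

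Over 30 measured contractile actin genes 21 were above 0, 3 were 1.5-fold higher, none was 1.5-fold lower and the median was 0.17. Against Nondifferentiation 16 of the 30 were above 0 and the median was 0.02. Of 15 measured genes of the mesenchymal neuroblastoma state 13 were above 0 with a median of 0.24, and PTRF and IGFBP3 passed 2-fold. Against Nondifferentiation 7 of the 15 were above 0 and the median was -0.01. siUPF1 was above siControl, siSTAU1 and Nondifferentiation in 8 of the 30 contractile and 5 of the 15 mesenchymal genes. Over all measured genes that share was 24.9%. siUPF1 was below all 3 libraries in 2 and 1 of these genes, against 28% of all measured genes. VIM differed by 0.31, FN1 by 0.00 and YAP1 by -0.09, and CD44 was listed at 0 in both libraries.

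Targets of p53 were higher than in siControl and lower than in Nondifferentiation. Of 23 measured targets 15 were above 0, 4 were 1.5-fold higher and the median was 0.21 against siControl, while against Nondifferentiation 4 of 23 were above 0 and the median was -0.17. PHLDA3, an inhibitor of AKT, stood at 9.67 in siUPF1, 8.74 in siControl, 8.72 in siSTAU1, 10.02 in Nondifferentiation and 9.05 in Differentiation. GDF15, a secreted stress factor, stood at 9.34, 8.59, 8.73, 9.84 and 10.64. CDKN1A, given above, had the same order of siControl, siSTAU1, siUPF1 and Nondifferentiation as GDF15. Immediate early genes did likewise, with a median of 0.25 over 14 measured genes against siControl and of -0.13 against Nondifferentiation, and ATF3 was their only member past 1.5-fold.

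Autophagy and lysosome genes were shifted upwards by a small amount. Of 41 measured members 32 were above 0 with a median of 0.19, and siUPF1 was the highest of the 4 libraries without differentiation in 19 and the lowest in 2, against 24.9% and 28% of all measured genes. Only GABARAPL1 passed 2-fold, and ATG13 joined it at 1.5-fold. ATG13, of the kinase complex that starts autophagy, stood at 10.29 in siUPF1, 9.70 in siControl, 9.52 in siSTAU1, 10.02 in Nondifferentiation and 10.46 in Differentiation. ATG4B, a protease that processes the ATG8 proteins, differed by 0.51, 0.53 and 0.48 from siControl, siSTAU1 and Nondifferentiation, and its relative ATG4C by -0.66, -0.20 and -0.52. The list's median was 0.11 against siSTAU1, with 27 of the 41 above 0, and 0.09 against Nondifferentiation, with 23 above 0.

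Genes of the translation apparatus and of respiration lay slightly lower. Of 79 measured cytosolic ribosomal protein genes none passed 1.5-fold, 63 were below 0 and the median was -0.12. siUPF1 was the lowest of the 4 libraries without differentiation in 36 and the highest in 1, against 28% and 24.9% of all measured genes. The median against Nondifferentiation was -0.03. RPS12, itself a host of small nucleolar RNAs, differed by -0.48 from siControl and by -0.01 from Nondifferentiation. The respiratory chain and ATP synthase list had a median of -0.07 over 77 genes and the mitochondrial ribosome a median of -0.05 over 71 genes, of which MRPS15 alone passed 1.5-fold, at -0.64.

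**Figure D4:**
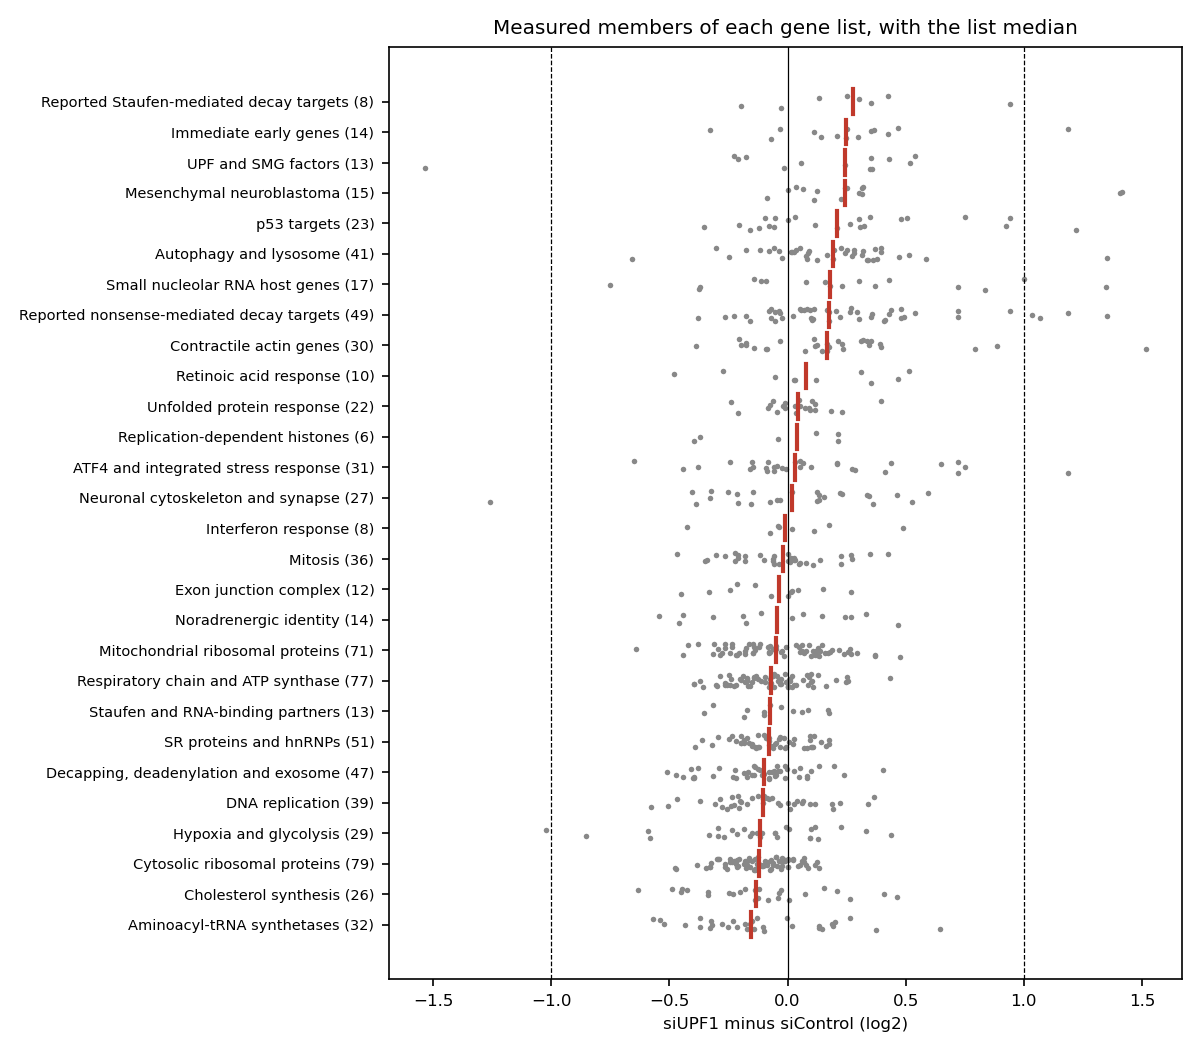
Log2 difference siUPF1 minus siControl (x axis) for each measured member of 28 gene lists (y axis, number of measured members in brackets), with the list median as a red bar and dashed lines at 2-fold. Medians run from -0.15 for aminoacyl-tRNA synthetases to 0.28 for reported Staufen-mediated decay targets, against -0.01 for all measured genes.

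Transcript composition moved with the difference more than the annotated decay features examined did. GC content was that of the longest protein-coding GENCODE transcript, or of the longest transcript for genes without a protein-coding one. It was matched by symbol for 8210 measured genes. The median difference in 4 equal groups from low to high GC was -0.10, -0.06, 0.02 and 0.10. At 1.5-fold 19, 40, 81 and 107 genes of these groups were higher and 47, 35, 21 and 22 lower. Across the 8210 genes Pearson's r with GC was 0.28 and Spearman's rho 0.29, as a description, since the genes share 2 libraries. With siSTAU1 as the reference rho was 0.29 over 8210 genes and with Nondifferentiation 0.14 over 8224, while for siSTAU1 against siControl it was 0.00 over 8178. For Nondifferentiation against siControl it was 0.14 over 8219, so a trend with GC was not limited to the siUPF1 library.

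Whether GC content has a part in the list differences above was not tested. With a trend on GC and length removed the medians were 0.28 for UPF and SMG factors and 0.19 for reported nonsense-mediated decay targets. They were 0.22 for host genes of small nucleolar RNAs, -0.13 for hypoxia and glycolysis and 0.16 for autophagy. Each of these medians differed by less than 0.1 from the value without that step. Of 41 autophagy and lysosome genes 26 were above 0, against 32 without the step, and 1 host gene was 2-fold higher, against 2. The median of mesenchymal neuroblastoma genes went from 0.24 to 0.17 and that of p53 targets from 0.21 to 0.14. SR proteins and hnRNPs, with a median GC of 42.6%, moved from -0.08 to -0.01.

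Genes with an annotated nonsense-mediated decay transcript, 3738 of the 8210, had a median of 0.00, against -0.03 for the 4472 without one. At 1.5-fold 3.26% of the former and 2.80% of the latter were higher. Within the 4 GC groups the medians with and without such a transcript were -0.10 and -0.11, -0.03 and -0.07, 0.05 and 0.01, and 0.13 and 0.08. The medians with one were the higher in each group, but the share 1.5-fold higher was lower with such a transcript in the 2 groups of low GC, at 0.610% against 1.21% and 1.85% against 2.03%, and higher in the other two, at 6.17% against 4.43% in the group of highest GC. Of the 35 genes past 2-fold 31 could be matched and 15 of these had such a transcript. An annotated isoform need not be made in these cells, and its reads are pooled with those of the main isoform.

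Long 3' untranslated regions, a known feature of transcripts that bind UPF1, did not go with higher values when GC content was left aside. From the shortest to the longest of 4 equal groups the medians were 0.00, 0.01, -0.01 and -0.05. Within GC groups the longest lay above the shortest, at -0.10 against -0.15 in the group of lowest GC and at 0.11 against 0.08 in the group of highest GC. By an ATG in the 5' untranslated region the median was -0.01 for the 4580 genes with one and also -0.01 for the 3425 without. At 1.5-fold 3.17% of the former and 2.51% of the latter were higher, and 1.48% and 1.37% were lower. A splice junction more than 50 bases after the stop codon was found in 40 genes, with a median of 0.03, and none of them passed 2-fold. It was sought only in the longest protein-coding transcript of a gene, so transcripts annotated as nonsense-mediated decay were passed over. The count therefore cannot show how transcripts of that kind behaved. These last 2 features were chosen after the data had been seen.

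**Figure D5:**
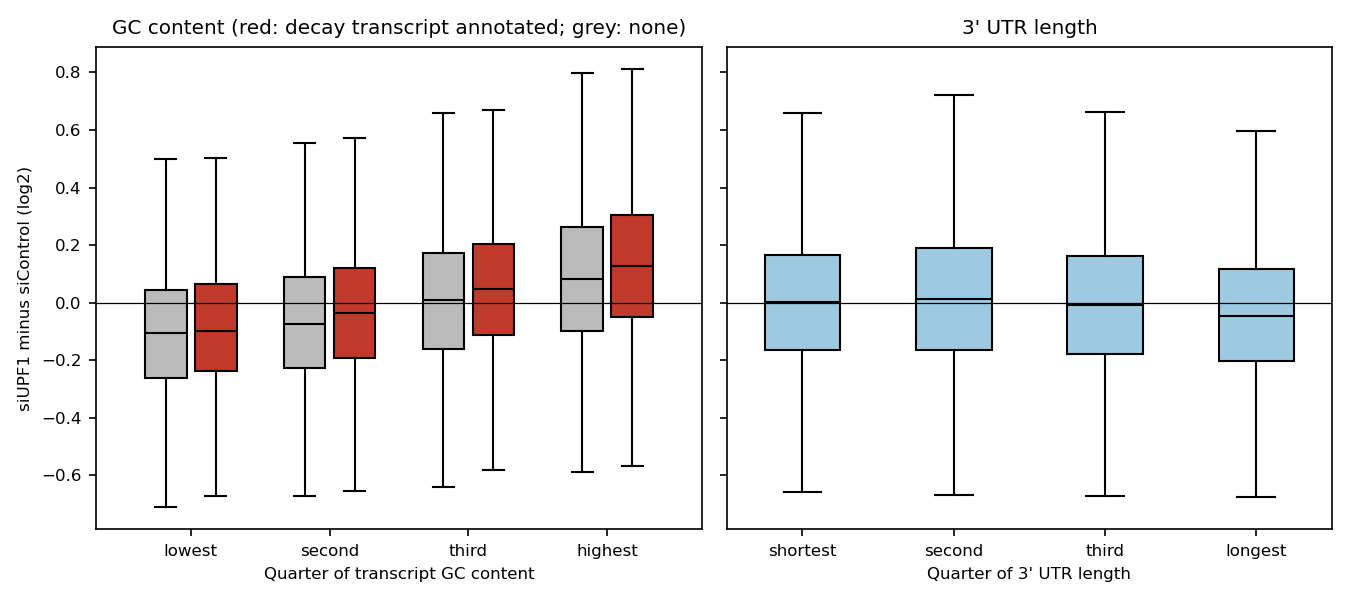
Log2 difference siUPF1 minus siControl (y axis) in 4 equal groups of measured genes by transcript GC content, split by an annotated decay transcript (left, red with and grey without), and by length of the 3' untranslated region (right). Boxes show the median and quartiles, whiskers reach to 1.5 box lengths, and the GC medians climb from -0.10 to 0.10.

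Few markers of other cell types were measured. None of the luminal epithelial, blood and glial markers reached the floor in siUPF1 or siControl, and of 16 hepatocyte markers ALB alone did. ALB, serum albumin, stood at 9.02 in siUPF1, 6.36 in siControl, 7.05 in siSTAU1, 5.98 in Nondifferentiation and 2.38 in Differentiation, the largest difference of all measured genes at 2.66. Of the other hepatocyte markers TTR, SERPINA1 and AFP were listed at 0 in all 5 libraries, 11 of the 16 were listed at 0 in siControl and 11 in siUPF1, and the summed linear level without ALB was 23.6 in siControl and 23.4 in siUPF1. The summed level of 10 luminal epithelial markers was 64.4 in siControl, 155.2 in siUPF1 and 656.6 in siSTAU1, in which none was listed at 0. Their part in the differences to siSTAU1 was not tested. The noradrenergic marker GATA3 stood at 14.53 in siControl and at 14.35 in siUPF1, and 0 of the 20 noradrenergic genes were listed at 0 in either library.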

How the data were processed

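Expression was deposited as log2 values by gene symbol, in 5 libraries of 1 group each. Per the labels' protocols RNA was taken with Trizol and sequenced with a Lexogen QuantSeq kit. Per the submitters' processing notes, Bowtie2, edgeR and hg19 were used, with no role stated. The sources used here do not say how reads were counted, with which annotation or by which strand. The common distribution of the deposited log2 values looks like that of quantile normalization, a step inferred and not stated.

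Differences were taken between the deposited log2 values, for genes whose larger value reached 7.8, with thresholds of 2-fold and 1.5-fold. Reads were estimated from the spacing of the lowest 60 steps of each library, which gave 15300000 to 32000000 reads. The counting SE came from those estimates, and intervals are at 95%. No test was run. Genes were named by rule: UPF1, STAU1, every gene past 2-fold, and in each of 32 lists at most 4 members from either end. Further list members (among them SRSF3, PTBP1, HSPA5, ARF1, STAU2, UPF3B and single cell type markers) and GAS5-AS1 were named for their known roles after their values were seen. Some genes that the rule names are not reported here. Members and lists were chosen with earlier results of these data known. GC content, lengths and annotated decay transcripts came from GENCODE release 29, matched by symbol for 95.9% of measured genes, and promoter windows from RefSeq on GRCh38.p14. That annotation is of another build than hg19, so no other positions are printed. Alternatives changed the floor, the reference library, a pseudocount, centring, the threshold and a trend on GC and length. The steps were tested on simulated data. Python was version 3.11.15, with scipy 1.17.1, numpy 2.4.6, matplotlib 3.10.9 and pandas 2.3.3.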

Additional observations from a re-analysis of the deposited data

How the results depend on the processing

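The UPF1 difference kept its direction and stayed past 2-fold under every alternative run. The counts of 35 higher and 12 lower genes were sensitive to the floor: they were 773 and 741 with none, 55 and 23 with a floor of 7, 17 and 3 with a floor of 9, 17 and 3 with both values at or above 7.8, and 15 and 2 with a pseudocount of 64. At 1.5-fold they were 261 and 134. With another reference the lower genes numbered 71 (Nondifferentiation), 26 (siSTAU1) and 7 (mean of siControl and siSTAU1). Required against each of the 3 references, a rule chosen after seeing the data, the counts were 10 and 4. With Nondifferentiation as the reference, and genes measured in that pair, the medians of p53 targets (-0.19) and immediate early genes (-0.13) and the differences of PGF (-0.24), FDXR (-0.014) and UPP1 (-0.35) had the opposite sign. So did the medians of reported Staufen-mediated decay targets (-0.04), mesenchymal genes (-0.01), the unfolded protein response (-0.40), neuronal (-0.22) and retinoic acid (-0.05) genes, mitosis (0.28) and DNA replication (0.03). Among the genes named here between 1.5-fold and 2-fold, so did CDKN1A (-0.88), GDF15 (-0.50), PHLDA3 (-0.35) and MRPS15 (0.14). Under other alternatives the small medians of histone, interferon, integrated stress response, unfolded protein response, neuronal and mitosis genes also crossed 0. The cause was not tested. Centring on the median and removing a trend on GC and length kept both counts within 1.5 times. No paired analysis was possible because each group has 1 library and the labels carry no replicate numbers. Leaving out a replicate was not possible for the same reason. Under a log2 value of 8 the interquartile range of the differences was 0.546, against 0.262 at 12 and above, so low genes are the least precise.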

Other observations

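Among the lists not described above, cell cycle genes were close to level against siControl. Of 36 measured mitosis genes 16 were above 0 and 18 below, with a median of -0.02, and none passed 1.5-fold. CKS1B and BIRC5 differed by 0.42 and 0.35, and CCNA2 and CENPF by -0.47 and -0.35. Against Nondifferentiation 33 of the 36 were above 0 and the median was 0.28. DNA replication genes had a median of -0.10 over 39 genes, with RFC1 at -0.58 and RFC2 at 0.37. Of 26 measured cholesterol synthesis genes 19 were below 0 with a median of -0.13. siUPF1 was the lowest of the 4 libraries without differentiation in 15 of the 26, against 28% of all measured genes. Against Nondifferentiation the median of the cholesterol synthesis genes was -0.40, with 2 above 0. INSIG1, a sensor of sterol levels, stood at 9.12 in siUPF1, 9.76 in siControl, 9.54 in siSTAU1, 9.96 in Nondifferentiation and 8.96 in Differentiation. It was lowest in siUPF1 among the undifferentiated libraries.

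Noradrenergic genes had a median of -0.04 over 14 measured members, with SLC6A2, the noradrenaline transporter, at -0.54, ISL1 at -0.46 and RET at 0.47. Neuronal cytoskeleton and synapse genes had a median of 0.02 over 27 and of -0.22 against Nondifferentiation, with 9 above 0, with DLG4, a postsynaptic scaffold, at 0.60 and PPFIA2 at -1.26. Of 211 measured zinc finger genes with ZNF symbols 1 was 1.5-fold higher and 6 were 1.5-fold lower, with a median of -0.07. The shares over all measured genes were 3.05% and 1.57%. Genes just short of 2-fold, outside the naming rule, were SLC12A4, TMEM25, MUTYH, MOK, DNAJC25, PITHD1, LMAN2L and EPB41L5 among the higher, from 0.95 to 0.99, and SLC8A1, NEK3, PDE4DIP, ATP8A1 and MIR17HG among the lower, from -0.99 to -0.96. PDE4DIP stood at 8.22 in siUPF1, 9.21 in siControl, 8.20 in siSTAU1 and 8.40 in Nondifferentiation, so siControl was the library apart. ATP8A1, a lipid flippase of membranes, stood at 8.24, 9.23, 9.36 and 9.28 in the same order, so siUPF1 was.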
